A study of Mus musculus with 36 samples.

Results

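The adult haemoglobin genes Hba-a1, Hba-a2, Hbb-bs and Hbb-bt and the erythroid haem synthesis gene Alas2 were followed through RNA-seq libraries of mouse kidney cortex. These 5 genes were taken by name from a count table of 15730 genes because an earlier look at the same table had shown them higher with benzo-LXA4 in nondiabetic mice and lower with benzo-LXA4 in diabetic mice. The levels in the vehicle and benzo-LXA4 groups therefore chose the genes, and they are given here as a description with no test. All 5 genes passed the filter on low counts, which kept 15726 genes.

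Every library came from ApoE-/- male mice on a C57BL/6 background, so the controls lacked apolipoprotein E as well. Diabetic mice had been given 5 daily streptozotocin injections of 55 mg/kg at 6 weeks of age, a chemical model in which the toxin destroys pancreatic beta cells. Mice of either state received ethanol vehicle (0.1%), LXA4 (lipoxin A4, an anti-inflammatory lipid mediator) at 5 µg/kg, or benzo-LXA4 (a synthetic LXA4 analog) at 1.7 µg/kg. Injections were given 2 times a week, and the labels describe treatment between weeks 10 and 16. The 6 groups are nondiabetic vehicle, nondiabetic LXA4, nondiabetic benzo-LXA4, diabetic vehicle, diabetic LXA4 and diabetic benzo-LXA4, with 6 libraries each. The labels do not say that each replicate is a separate mouse, so p-values measure the spread between these libraries, which may be technical in part.

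Adult haemoglobin is a tetramer of alpha chains (from Hba-a1 and Hba-a2) and beta chains (from Hbb-bs and Hbb-bt), each carrying a haem group. Alas2 encodes the erythroid form of 5-aminolevulinate synthase, the enzyme of the first step of haem synthesis. Reticulocytes, the young red cells of the circulation, still carry these RNAs, whereas kidney epithelium makes its haem with the housekeeping enzyme Alas1.

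The alpha genes Hba-a1 (ENSMUSG00000069919, chr11:32283511-32284465, plus strand) and Hba-a2 (ENSMUSG00000069917, chr11:32296489-32297298, plus strand) lie near each other in GRCm38. The beta genes Hbb-bs (ENSMUSG00000052305, chr7:103826534-103828096) and Hbb-bt (ENSMUSG00000073940, chr7:103812524-103813996) lie on the minus strand, and Alas2 (ENSMUSG00000025270, chrX:150547375-150570638) on the plus strand of the X chromosome. All 5 are protein coding. Over the 429 coding bases the GENCODE M21 transcripts of Hba-a1 and Hba-a2 differ at 1 base, and over their 444 coding bases those of Hbb-bs and Hbb-bt also differ at 1 base. The coding stretches around those positions are shown because they are what a read has to cover to tell the copies apart within the coding sequence. Capitals mark the base that differs, at coding base 381 in the alpha pair and 417 in the beta pair, counted from the A of the start codon.
Hba-a1: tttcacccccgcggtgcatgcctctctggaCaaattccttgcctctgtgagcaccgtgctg
Hba-a2: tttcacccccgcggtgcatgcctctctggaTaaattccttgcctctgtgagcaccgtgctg
Hbb-bs: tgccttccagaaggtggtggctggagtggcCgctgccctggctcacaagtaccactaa
Hbb-bt: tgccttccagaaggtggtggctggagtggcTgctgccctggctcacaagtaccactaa
Of all 50-base windows in the Hba-a1 coding sequence, 87.1% also occur in that of Hba-a2, and 92.9% of the Hbb-bs windows occur in that of Hbb-bt. How reads that match both copies were counted is not stated in the labels or notes. The split between the members of a pair is therefore uncertain, while the sum of a pair does not depend on how shared reads were split, as long as they were counted.

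The bases just upstream of each start site are shown because the 5 genes moved together across libraries. They are the 250 bases before the RefSeq start site in GRCm38.p6, and all 5 genes matched an entry. Capitals mark 4 motifs searched on both strands. The GATA factor motif was searched as the string AGATAA, as TGATAA with its first base changed, as AGATAG with its last base changed, and as TGATAG with both changed. The others were CACCC, the core bound by KLF factors, then CCAAT, bound by NF-Y, and ATATAA, which is a form of the TATA box. Adjacent capitals can hold more than one match.
Hba-a1 (chr11:32283422-32283671, plus strand): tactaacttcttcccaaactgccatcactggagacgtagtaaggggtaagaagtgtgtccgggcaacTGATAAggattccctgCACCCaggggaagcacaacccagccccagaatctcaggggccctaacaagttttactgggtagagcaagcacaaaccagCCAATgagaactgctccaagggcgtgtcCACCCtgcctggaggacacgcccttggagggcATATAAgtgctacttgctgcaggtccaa
Hbb-bs (chr7:103827929-103828178, minus strand): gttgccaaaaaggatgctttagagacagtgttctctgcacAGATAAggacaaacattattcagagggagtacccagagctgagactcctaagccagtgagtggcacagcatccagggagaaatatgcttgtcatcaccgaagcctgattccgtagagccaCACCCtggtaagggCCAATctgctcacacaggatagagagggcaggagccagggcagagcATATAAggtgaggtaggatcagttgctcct
Hbb-bt (chr7:103813924-103814173, minus strand): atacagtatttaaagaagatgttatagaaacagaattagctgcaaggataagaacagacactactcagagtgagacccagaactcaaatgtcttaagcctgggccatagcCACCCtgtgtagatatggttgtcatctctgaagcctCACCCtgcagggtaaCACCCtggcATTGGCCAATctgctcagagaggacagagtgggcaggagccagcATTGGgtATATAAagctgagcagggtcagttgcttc
Alas2 (chrX:150547167-150547416, plus strand): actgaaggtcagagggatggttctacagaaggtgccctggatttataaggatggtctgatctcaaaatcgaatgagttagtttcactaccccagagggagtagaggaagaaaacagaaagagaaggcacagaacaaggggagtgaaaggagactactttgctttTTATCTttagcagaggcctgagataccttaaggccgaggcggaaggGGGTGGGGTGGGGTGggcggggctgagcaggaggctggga
The window of Hba-a2 shares a run of 247 bases with that of Hba-a1 and holds the same matches. The windows of Hba-a1, Hba-a2 and Hbb-bs hold all 4 motifs, which 0.508% of 32851 promoter windows of this length do. The Hbb-bt window holds CACCC 3 times, CCAAT on either strand and ATATAA, but none of the 4 GATA strings. The Alas2 window holds 1 GATA match and 3 CACCC matches, all on the reverse strand, and neither CCAAT nor ATATAA. Singly the motifs are common, at 26.5% of all windows for GATA, 52.0% for CACCC, 33.8% for CCAAT and 9.1% for ATATAA, and a match is not evidence of binding.

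Library totals ran from 8896193 counts (diabetic LXA4 replicate 6) to 43305005 (nondiabetic LXA4 replicate 2). The library diabetic LXA4 replicate 6 stood apart: 4 noncoding RNA genes (Gm26917, Gm42418, Gm23935 and Rpph1, chosen after their values were seen) took 56.7% of its counts. They took 17.5% of nondiabetic vehicle replicate 3 and at most 6.73% of the other 34 libraries. Where a log2 difference of the 5 genes or a count of calls in a gene list uses either library, its value without both is given as well. The tissue markers of kidney cortex were present, with the proximal tubule endocytic receptor Lrp2 at a group mean of 4175 to 6154 CPM (counts relative to the library's total, which is scaled by the TMM method).

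The 4 globin genes together took between 0.00364% and 0.0392% of a library's counts. On a scale per length, Hbb-bs was the highest of the 5 at 155 ± 61 RPKM (CPM per kilobase of exon, SD over 36 libraries). If reads that match both copies of a pair were not counted, the globin values are too low on this scale. The order of the 5 genes and their distance from Alas2 are therefore uncertain. Hba-a1 stood at 63.9 ± 24 RPKM and Hba-a2 at 60.6 ± 21 RPKM, close to each other, and Hbb-bt at 27 ± 10.1 RPKM. The enzyme gene Alas2 was lowest at 4.22 ± 1.44 RPKM. By CPM, Hbb-bs ranked 1577th and Alas2 9474th of the 15726 genes. The smallest counts behind any value were those of diabetic LXA4 replicate 6, at 7 for Alas2, 27 for Hbb-bt, 44 for Hba-a1, 88 for Hba-a2 and 165 for Hbb-bs.

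The groups fell into nearly the same order for all 5 genes: nondiabetic benzo-LXA4, nondiabetic LXA4 and diabetic vehicle on top, then nondiabetic vehicle, diabetic LXA4 and diabetic benzo-LXA4. Mean levels of Hba-a1 in that order were 69.7, 62.2, 60.5, 46.2, 40.6 and 32.2 CPM. Only the order of the top 3 groups varied by gene, and Hbb-bs was highest in diabetic vehicle (154 ± 36.3 CPM, n = 6). For each of the 5 genes, the libraries of neighbouring groups in this order overlapped. Without the 2 libraries, the nondiabetic vehicle mean was still above the diabetic LXA4 mean for all 5 genes. The gap was small for Hba-a2 (37.4 and 36.7 CPM) and Alas2 (9.90 and 9.48 CPM). The plot of CPM by group shows these levels library by library. In bulk tissue, fewer cells of a type and less RNA per cell cannot be told apart.

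**Figure D1:**
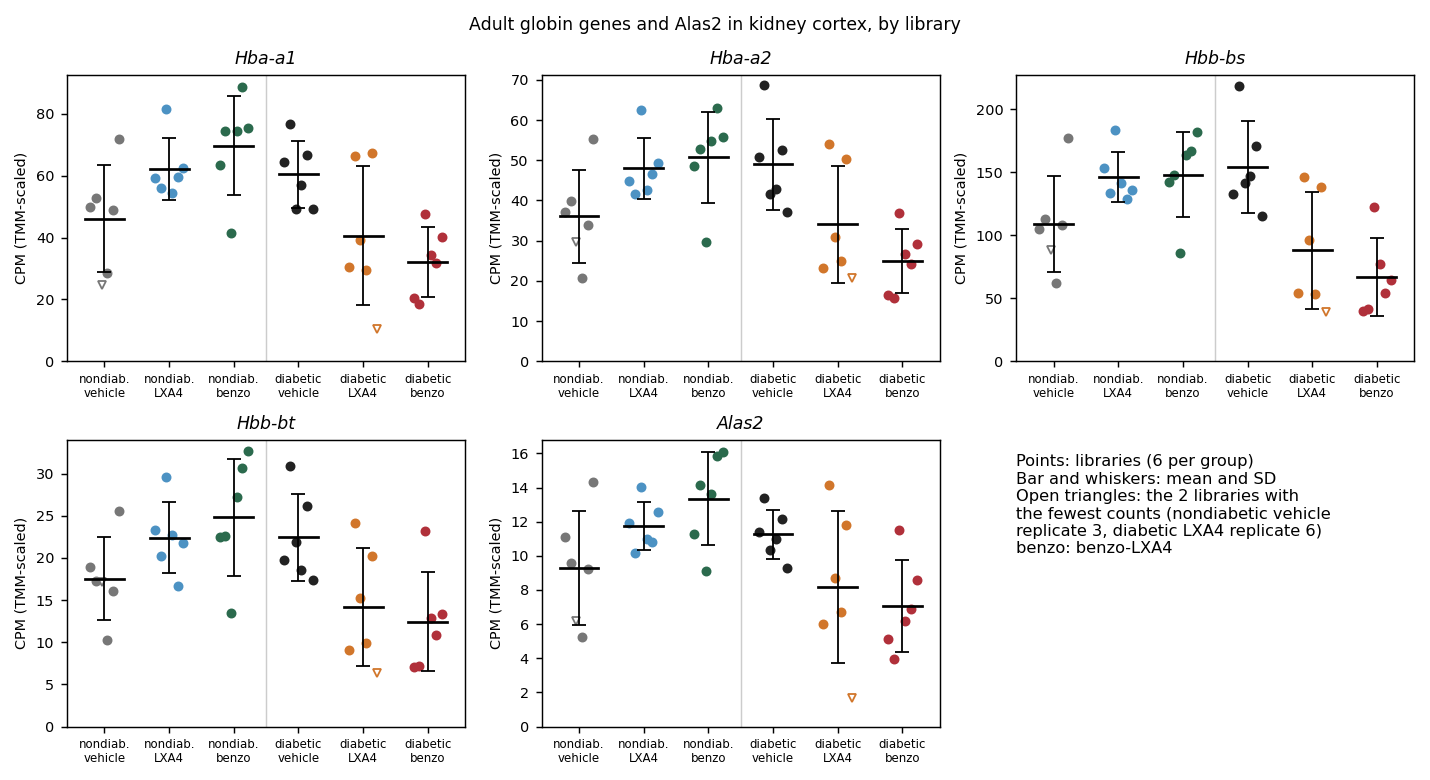
CPM (y axis, TMM-scaled) of Hba-a1, Hba-a2, Hbb-bs, Hbb-bt and Alas2 in each of 6 libraries per group (x axis), with bars at the mean and whiskers at 1 SD. Open triangles are nondiabetic vehicle replicate 3 and diabetic LXA4 replicate 6. The same libraries are high or low in all 5 panels, such as replicates 2 and 5 of diabetic LXA4, at 66.5 and 67.4 CPM of Hba-a1, above the other 4 libraries of that group.

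Among diabetic mice, all 5 genes had lower means with benzo-LXA4 than with vehicle. This is the direction for which they were chosen, and the intervals given for benzo-LXA4 take no account of that choice. Hba-a1 ran from 49.2 through a median of 60.7 to 76.7 CPM with vehicle and from 18.5 through 33.1 to 47.7 CPM with benzo-LXA4, a log2 difference of -0.91 (95% interval -1.48 to -0.34). Hba-a2 ran from 37.2 through 46.9 to 68.7 CPM with vehicle and from 15.8 through 25.5 to 36.8 CPM with benzo-LXA4 (log2 difference -0.98, interval -1.45 to -0.50). The vehicle and benzo-LXA4 libraries of these 2 alpha genes did not overlap, which 0.553% of all genes showed in the same direction. That percentage carries no weight for genes chosen on this contrast.

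Of the 5 genes Hbb-bs differed the most, and the other beta gene, Hbb-bt, differed by less than either alpha gene. Hbb-bs, the beta gene with more counts, ran from 115 through 144 to 218 CPM with vehicle. With benzo-LXA4 it ran from 40.1 through 59.3 to 123 CPM, a level 0.432 times that of vehicle (log2 difference -1.21, interval -1.78 to -0.64). Hbb-bt ran from 17.4 through 20.9 to 30.9 CPM and from 7.07 through 11.9 to 23.2 CPM (log2 difference -0.85, interval -1.40 to -0.30). Alas2, which supplies haem to these chains, ran from 9.30 through 11.2 to 13.4 CPM and from 3.99 through 6.52 to 11.5 CPM (log2 difference -0.68, interval -1.20 to -0.15). In Hbb-bs, Hbb-bt and Alas2 the groups overlapped by 1 benzo-LXA4 library, replicate 3, which was the highest of its group for all 5 genes.

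Among nondiabetic mice, all 5 genes had higher means with benzo-LXA4 than with vehicle, again as chosen. Hba-a1 ran from 24.8 through 49.4 to 72.0 CPM with vehicle and from 41.5 through 74.5 to 88.8 CPM with benzo-LXA4 (log2 difference 0.59, interval 0.02 to 1.15). Hba-a2 ran from 20.7 through 35.6 to 55.4 CPM and from 29.6 through 53.8 to 62.9 CPM (log2 difference 0.49, interval 0.02 to 0.96). The groups overlapped for both alpha genes, because nondiabetic vehicle replicate 6 was high and nondiabetic benzo-LXA4 replicate 3 was low. The same pair of libraries marked the ends of the overlap in the other genes. Hbb-bs ran from 62.2 through 107 to 177 CPM with vehicle and from 85.6 through 156 to 182 CPM with benzo-LXA4 (log2 difference 0.44, interval -0.12 to 1.00). Hbb-bt (17.5 ± 4.91 and 24.8 ± 6.95 CPM) and Alas2 (9.28 ± 3.33 and 13.4 ± 2.70 CPM) had log2 differences of 0.50 and 0.51, with intervals that reached below 0. Without nondiabetic vehicle replicate 3, the vehicle mean of Hba-a1 was 50.4 in place of 46.2 CPM. With both named libraries left out of the fit, the differences were 0.48 for Hba-a1, 0.45 for Hba-a2, 0.40 for Hbb-bs, 0.51 for Hbb-bt and 0.45 for Alas2.

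The difference between these 2 contrasts, diabetic minus nondiabetic, was -1.65 for Hbb-bs, -1.50 for Hba-a1, -1.47 for Hba-a2, -1.35 for Hbb-bt and -1.19 for Alas2 on the log2 scale. With the 2 libraries left out it was -1.61, -1.39, -1.43, -1.36 and -1.12 in the same order of genes. The median over all genes was 0.01. In this interaction, and in benzo-LXA4 against vehicle in either state, 0% of all 15726 genes passed an adjusted p of 0.05 by edgeR. At an unadjusted p under 0.05 there were 673 genes for the interaction, 891 for diabetic and 452 for nondiabetic mice. DESeq2 called 52 genes in diabetic and 2 in nondiabetic mice, and 0 for the interaction. Without the 2 libraries, edgeR called 48 genes in diabetic mice. The levels in these groups chose the haemoglobin genes and Alas2, so no test of them is read from these counts over all genes.

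**Figure D2:**
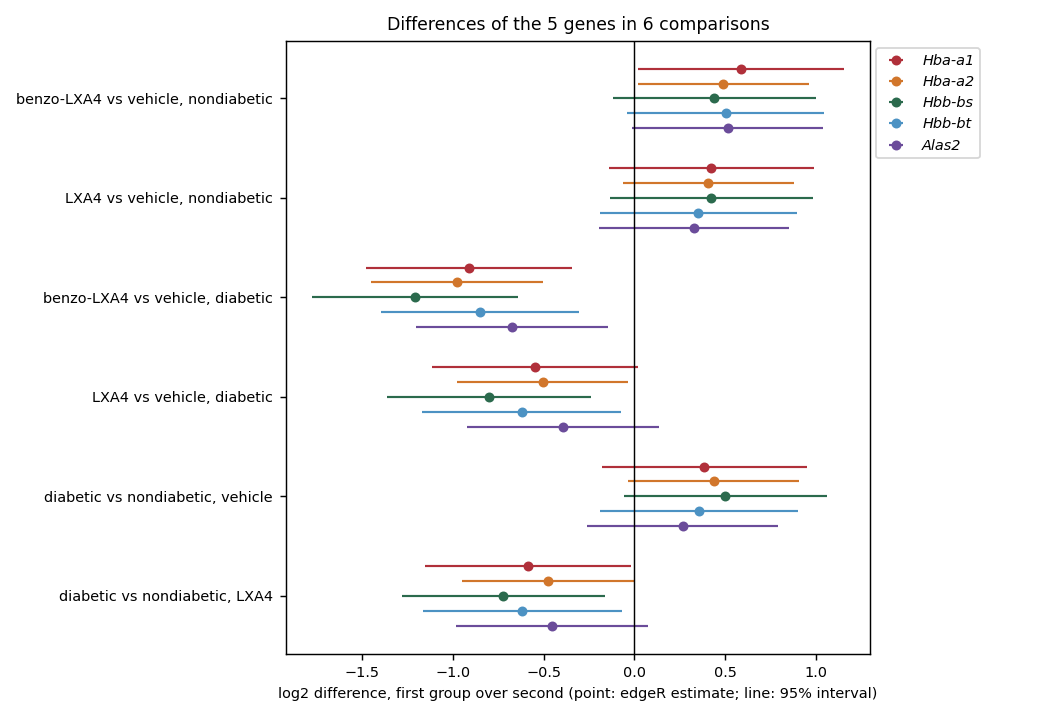
Log2 difference (x axis) of each of the 5 genes in 6 comparisons (y axis), with points for edgeR estimates and lines for 95% intervals. The benzo-LXA4 comparisons chose the genes, and the 4 comparisons with vehicle share the vehicle libraries of their state with each other and with diabetic against nondiabetic vehicle. The estimates lie above 0 with either compound in nondiabetic mice (0.33 to 0.59) and below 0 with either compound in diabetic mice (-1.21 to -0.39).

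LXA4 was set beside the same vehicle libraries, which the choice of genes had already used, so its values too are a description. In nondiabetic mice, the log2 differences of LXA4 from vehicle were 0.42 for Hba-a1, 0.41 for Hba-a2, 0.42 for Hbb-bs, 0.35 for Hbb-bt and 0.33 for Alas2. In diabetic mice they were -0.55, -0.51, -0.80, -0.62 and -0.39 in the same order of genes. The median over all genes was -0.02 and 0.01. Leaving out the 2 libraries gave 0.31, 0.36, 0.37, 0.35 and 0.25 in nondiabetic and -0.38, -0.42, -0.66, -0.51 and -0.25 in diabetic mice. Single libraries moved these differences, for example that of Alas2. In diabetic mice its difference was -0.25 without diabetic LXA4 replicate 6 and -0.60 without replicate 2. In nondiabetic mice it was 0.20 without nondiabetic vehicle replicate 4 and 0.50 without replicate 6, and Hbb-bt stood at 0.23 without the former. LXA4 was given at 5 and benzo-LXA4 at 1.7 µg/kg, so the compounds were not compared with each other.

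The diabetic LXA4 libraries were split. Replicates 2 and 5 had 66.5 and 67.4 CPM of Hba-a1, within the range of diabetic vehicle, and replicates 1, 3 and 4 had 30.5, 39.1 and 29.5 CPM. Replicate 6, the library rich in noncoding RNA, had 10.4 CPM. Hbb-bs followed the same split, with 146 and 138 CPM in replicates 2 and 5, 54.3, 96.2 and 53.7 CPM in replicates 1, 3 and 4, and 39.0 CPM in replicate 6. Without replicate 6, the diabetic LXA4 mean was 46.6 in place of 40.6 CPM for Hba-a1 and 97.7 in place of 87.9 CPM for Hbb-bs. Nondiabetic LXA4 was the tightest group, at 146 ± 20 CPM of Hbb-bs and 11.8 ± 1.41 CPM of Alas2.

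Under vehicle, diabetic mice were higher in mean than nondiabetic mice for all 5 genes, by a log2 difference of 0.50 for Hbb-bs, 0.44 for Hba-a2, 0.38 for Hba-a1, 0.35 for Hbb-bt and 0.27 for Alas2. Every one of these intervals included 0, and the groups overlapped for every gene. Leaving out the 2 libraries gave 0.45, 0.39, 0.27, 0.35 and 0.19 in the same order. Single vehicle libraries of nondiabetic mice moved them: Alas2 stood at 0.15 without replicate 4 and at 0.43 without replicate 6, and Hba-a1 at 0.26 without replicate 3 and 0.55 without replicate 6. These values use the vehicle libraries that chose the genes and carry no test.

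The only comparison between groups that the choice did not use is diabetic with nondiabetic mice under LXA4. Its test still takes the spread from all 36 libraries, among them those that chose the genes. Here Hbb-bs fell: it ran from 129 through 139 to 183 CPM in nondiabetic and from 39.0 through 75.3 to 146 CPM in diabetic mice. The log2 difference was -0.72 (SE 0.28, interval -1.28 to -0.16), a level 0.606 times that of nondiabetic mice, with an adjusted p of 0.0485 by edgeR's quasi-likelihood test. In 5 of the 6 diabetic libraries Hbb-bs lay below the nondiabetic mean, and the groups overlapped. Hba-a1 (log2 difference -0.59, adjusted p = 0.110), Hba-a2 (-0.48, adjusted p = 0.119), Hbb-bt (-0.62, adjusted p = 0.0821) and Alas2 (-0.45, adjusted p = 0.188) did not pass in the same edgeR test. So 1 of 5 genes was called, beside 27.7% of all genes in this comparison (15.4% called higher and 12.3% lower), and the count is near that background. The median difference of the 5 genes was -0.59, beside 0.05 over all genes.

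The Hbb-bs call depended on which libraries entered the fit. With only the groups compared in the fit, its edgeR adjusted p was 0.113 and the call was lost. Without nondiabetic vehicle replicate 3 and diabetic LXA4 replicate 6 the log2 difference was -0.58 with an edgeR adjusted p of 0.0920. The call held without diabetic LXA4 replicate 2 or 5 and was lost without any 1 of the other 10 libraries compared. Without replicate 2 of diabetic LXA4, Hba-a1 (-0.78, edgeR adjusted p = 0.0373), Hba-a2 (-0.66, 0.0318) and Hbb-bt (-0.83, 0.0220) passed as well, and without replicate 5 the same 3 genes passed (-0.79, -0.63 and -0.75).

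The 5 genes varied together within groups. With each group's mean removed, Pearson's r of log2 CPM between any pair of them lay between 0.84 and 0.97 over the 36 libraries, and between 0.92 and 0.99 without the 2 libraries named above. The libraries share their depth and scaling across genes, so these are descriptions. The within-group SD was 0.42 (Hba-a2) to 0.56 (Alas2) on the log2 scale, beside a median of 0.27 over all genes, which puts the 5 genes between the 76.1th and the 86.2th percentile.

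Proportions within the set moved far less than the levels. In the 34 libraries without the 2 named ones, Hba-a1 made up 52.8% to 59.0% of the alpha CPM, while the sum of the 4 globins ran from 0.00860% to 0.0392% of counts. In diabetic LXA4 replicate 6 the Hba-a1 share was 33.3% (44 of 132 alpha counts, Wilson 95% interval 25.9% to 41.7%). In nondiabetic vehicle replicate 3 it was 45.6% (217 of 476, Wilson interval 41.2% to 50.1%). These intervals cover counting error only. The 2 libraries richest in the 4 noncoding RNAs thus also had the lowest Hba-a1 shares, and the part of library composition in this was not tested.

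Hbb-bt, the beta gene with fewer counts, made up 11.2% to 17.2% of the beta CPM. How reads shared by both copies were counted is not stated, so this share and the Hba-a1 share may not be RNA proportions. Its mean share was 12.7% ± 0.823 in diabetic vehicle and 15.7% ± 1.15 in diabetic benzo-LXA4 (SD, n = 6). All 6 benzo-LXA4 libraries (14.3% to 17.2%) lay above all 6 vehicle libraries (11.2% to 13.4%), which describes a contrast the choice had used. In nondiabetic mice the mean shares were 14.1% with vehicle, 13.2% with LXA4 and 14.2% with benzo-LXA4, and their ranges overlapped.

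Beta CPM exceeded alpha CPM in every library, with a ratio from 1.12 to 1.93. If reads that match both copies of a pair were not counted, this ratio and Alas2 relative to globin do not give RNA proportions. Group means were 1.61 in diabetic vehicle, 1.36 in both diabetic LXA4 and diabetic benzo-LXA4, and 1.55, 1.54 and 1.44 in nondiabetic vehicle, LXA4 and benzo-LXA4. Without the 2 libraries the means were 1.48 in nondiabetic vehicle and 1.34 in diabetic LXA4. Alas2 stood at 3.39 to 6.09 CPM per 100 globin CPM in the 34 libraries and at 2.16 in diabetic LXA4 replicate 6, where it rests on 7 counts. Its group means ran from 3.99 ± 0.331 in diabetic vehicle to 5.25 ± 0.757 in diabetic benzo-LXA4, and that of diabetic LXA4 was 4.48, or 4.95 without replicate 6. As the plot of proportions shows, diabetic benzo-LXA4, the group with the least globin, had the highest mean of both Alas2 and Hbb-bt relative to it.

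**Figure D3:**
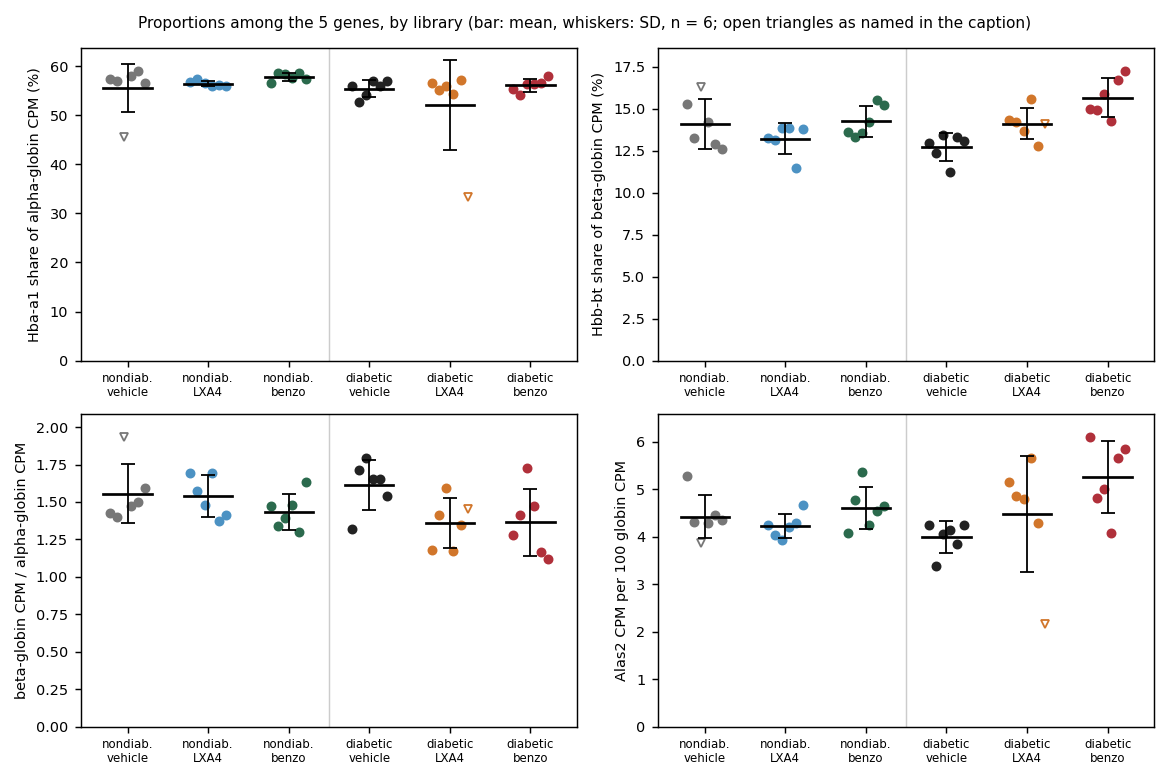
Hba-a1 share of alpha-globin CPM, Hbb-bt share of beta-globin CPM, ratio of beta to alpha CPM, and Alas2 CPM per 100 globin CPM (y axes, from 0) by library and group (x axes), with means and SDs, n = 6. Open triangles are nondiabetic vehicle replicate 3 and diabetic LXA4 replicate 6, which hold the lowest Hba-a1 shares, at 45.6% and 33.3%.

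Other red cell genes were examined as lists, of which only part was measured. Their calls in diabetic against nondiabetic mice under LXA4 stand beside the 15.4% of all genes called higher and the 12.3% called lower in that comparison. Without the 2 named libraries, an alternative added after the data were seen, these shares were 17.5% and 19.3%. The other globin genes were measured in 2 of 10, Cygb (cytoglobin, of fibroblasts and pericytes) at a group mean of 4.52 to 6.65 CPM and Ngb (neuroglobin). Both had higher means in diabetic mice under LXA4 (log2 difference 0.56 and 0.57) and did not pass, and neither followed the adult globins. Without the 2 libraries Cygb passed (0.69), whereas Ngb stood at 0.23 and did not. The Ngb median under LXA4 was 0.535 CPM in diabetic and 0.568 CPM in nondiabetic mice, the other direction from its mean. Embryonic globins were not analysed here.

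Of the red cell membrane and cytoskeleton list, 10 of 16 genes were measured, and 3 rose and 0 fell in diabetic mice under LXA4. The 3 that rose were Ank1 (ankyrin-1, log2 difference 1.17), Add2 (beta-adducin, 1.28) and Sptb (beta-spectrin, 0.55), the opposite sign to Hbb-bs. The best expressed of the list, Epb41 (protein 4.1, 0.16), the anion exchanger Slc4a1 (0.24), which kidney intercalated cells also express, and Tmcc2 (0.02) did not pass. The list's median was 0.20 beside 0.05 over all genes, and 7 of its differences lay above 0 and 3 below. Within groups, the r of Ank1, Add2 and Sptb with the mean of the 5 genes was 0.02, -0.30 and 0.03 over 36 libraries. In the fit without the 2 libraries 4 rose and 0 fell, the same 3 and Epb41 (0.20). The Sptb call was lost without any 1 of 4 libraries, and its difference was 0.33 without diabetic LXA4 replicate 5.

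Of the late erythroid and reticulocyte list, 12 of 19 genes were measured, and 1 rose and 3 fell in the same comparison. Fech (ferrochelatase, which inserts iron into haem, -0.27), Bnip3l (which removes mitochondria from maturing red cells, -0.33) and Bpgm (which makes 2,3-bisphosphoglycerate, -0.26) fell, and Ube2o (a ubiquitin enzyme of reticulocytes, 0.28) rose. The best expressed of the list were Rnf10, Xpo7 and Fech, genes of many tissues, of which Rnf10 (-0.14) and Xpo7 (-0.23) did not pass. The median was -0.18. Bnip3l, Bpgm and Ube2o differed by less without diabetic LXA4 replicate 6 (-0.19, -0.17 and 0.18). With both named libraries left out, Bnip3l (-0.21) and Bpgm (-0.18) still fell, whereas Ube2o (0.17) did not pass. Rnf10 (-0.27) and Fech (-0.26) made up the 4 that fell, with 0 that rose and a median of -0.09. With single libraries left out, the Bpgm call was lost in 5 of 12 fits and the Ube2o call in 4. Hence the list's sum, between 611 and 699.9 CPM in group means, is mostly of genes that are not confined to red cells.

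All 12 haem synthesis genes were measured, and 0 rose and 4 fell in diabetic mice under LXA4. These were Tfrc (the transferrin receptor, -0.82), Uros (-0.41), Urod (-0.38) and Fech (-0.27), enzymes of later steps apart from Tfrc. Alas1, the housekeeping counterpart of Alas2 and the most abundant of the list, differed by 0.08 and did not pass. Its group means ran from 112 to 159 CPM, and its r with the mean of the 5 genes within groups was -0.08 (0.09 without the 2 libraries). The median of the list was -0.19. Without the 2 libraries 0 rose and 8 fell, with a median of -0.28. Those that fell included the same 4 and, named for that reason, Cpox (-0.65), Slc25a38 (-0.29) and Alad (-0.25). With all libraries Slc25a38 had the other sign, at 0.08.

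Of the erythroid transcription factors and receptor, 6 of 10 genes were measured, and 2 rose and 0 fell. Epor, the erythropoietin receptor, rose by 1.39 from a group mean of 0.956 to 2.52 CPM, and the cofactor Ldb1 rose by 0.28. Lmo2 (0.29), Tal1 (0.14) and Klf1, the activator of adult beta-globin (0.60), did not pass. Klf1 had 1.45 to 2.59 CPM in group means, with its highest mean in diabetic LXA4, where the globins were low. In that group it ran from 1.38 through a median of 2.14 to 5.90 CPM. The Klf1 difference was 0.32 without the 2 libraries. The counts were the same without the 2 libraries, and the Epor call was lost without diabetic LXA4 replicate 5 (0.89). The r of these 6 genes with the mean of the 5 members within groups ran from -0.42 to -0.001 over 36 libraries. Without the 2 libraries it ran from -0.12 to 0.06. Gata1 was not analysed here.

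In handling of haemoglobin, haem and iron, 15 of 18 genes were measured, of which 2 rose (Lrp1, 0.47, and Hfe, 0.35) and 2 fell (Lrp2, -0.56, and Fth1, ferritin heavy chain, -0.48). Cubn, the partner of Lrp2 in protein uptake by the proximal tubule, had a difference of -0.36 and did not pass. In the fit without the 2 libraries 2 rose and 4 fell, with Hmox2 (-0.22) and Slc11a2 (-0.37) as the additional genes. Epo, the hormone that drives red cell formation and is made by interstitial cells of the kidney, had group means of 0.885 to 1.40 CPM and a difference of 0.10. In diabetic against nondiabetic vehicle mice, where 5.6% of all genes were called, these lists together gave 3 calls: Ank1 rose by 1.00, Hfe rose by 0.47 and Uros fell by 0.41 on the log2 scale. These 3 passed again without the 2 libraries, and so did Kel (0.95), Cpox (-0.45) and Lrp1 (0.46), beside 8.89% of all genes.

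Markers of other blood and vessel cells were measured in the same libraries. Of the neutrophil list only Csf3r (1 of 16) was measured, with group means of 1.73 to 2.24 CPM. Of the platelet list 5 of 15 were measured, led by Itga2b, Itgb3 and Alox12. Alox12 rose (0.80) and the platelet chemokine Ppbp fell (-1.27) in diabetic mice under LXA4, the latter at 0.167 ± 0.122 against 0.470 ± 0.148 CPM and listed at 0 in 1 or more diabetic libraries. Both calls held without the 2 libraries, with Alox12 at 0.54, and the Ppbp call was lost in 5 of 12 fits with a single library left out.

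Of the lymphocyte list 5 of 12 were measured, led by Ighm, Cd4 and Cd8a, with 0 calls. Its summed level ran from 5.45 to 19.5 CPM in diabetic vehicle, 0.708 to 9.13 in diabetic LXA4, 5.76 to 14.4 in diabetic benzo-LXA4, 3.89 to 13.9 in nondiabetic vehicle, 4.12 to 10.3 in nondiabetic LXA4 and 3.97 to 5.32 in nondiabetic benzo-LXA4. All 10 endothelial genes were measured, led by Flt1, Kdr and Eng, with 0 calls and group means of the sum between 559 and 592.7 CPM. The endothelial sum thus differed by little between groups in which the globin sum ran from 136 ± 54.8 (diabetic benzo-LXA4) to 293 ± 66.4 CPM (nondiabetic benzo-LXA4). The kidney cortex list (10 of 10 measured) had 1 gene that rose, Nphs1 of podocytes (0.54), and 2 that fell, Lrp2 (-0.56) and the phosphate transporter Slc34a1 (-0.56). Umod had a difference of -0.12. Cd4 (0.72) of the lymphocyte list rose without the 2 libraries, and of the endothelial list Ehd3 (0.18) rose and Kdr (-0.30) fell, while Slc5a2 (-0.86) joined the kidney cortex genes that fell. The part of cell composition in the globin values was not tested.

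To find genes with the same library-to-library pattern, the mean of the 5 genes was correlated with every other gene after removing group means. Over all genes r had a median of 0.05, with 5th and 95th percentiles of -0.49 and 0.54, and 0 genes exceeded 0.8. Among the 10 most alike were the dendritic cell lectin Clec9a (r = 0.77 over 36 libraries, 0.70 without the 2 named libraries), Gimap5, a GTPase of lymphocytes (0.75 and 0.63), and Cpne4 (0.75 and 0.63). Also among them were Dlgap5, a mitotic spindle protein (0.74 and 0.65), the organic anion transporter Slc22a8 (0.73 and 0.60), the predicted genes Gm43270 (0.73 and 0.61) and Gm17251 (0.73 and 0.60), and Hmox1 (0.73 and 0.72), haem oxygenase 1, which breaks haem down.

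Without the 2 libraries, the first rank passed to Fam46c, a late erythroid gene also called Tent5c, with r = 0.92 (0.72 with all 36 libraries), a gene singled out after its values were seen. Its group means ran from 16.1 ± 3.46 CPM in diabetic benzo-LXA4 to 20.3 ± 3.47 CPM in nondiabetic benzo-LXA4, a narrower span than that of the globins. Hmox1 had its highest mean in nondiabetic LXA4 (24.8 ± 5.78 CPM) and 17.2 to 18.3 CPM in the other groups. In the plot of likeness, Fam46c and Hmox1 lie to the right of the grey band with and without the 2 libraries. The T cell genes Cd4 and Cd8a lie above it with them (r = 0.59 and 0.58) and within it without them (0.29 and 0.32).

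**Figure D4:**
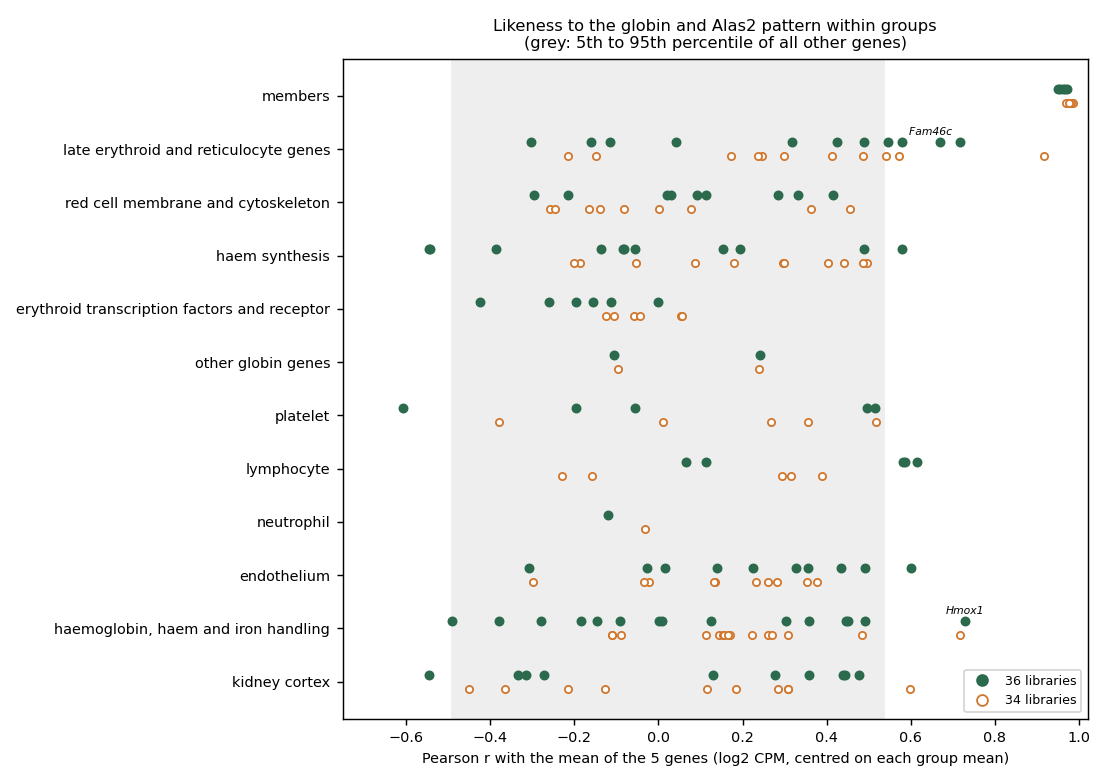
Pearson r (x axis) between genes of each list and the mean of the 5 genes, on log2 CPM with each group's mean removed, by gene list (y axis). Filled points use 36 libraries and open points 34, without nondiabetic vehicle replicate 3 and diabetic LXA4 replicate 6, and the grey band spans -0.49 to 0.54, the 5th to 95th percentile of the other genes over 36 libraries. The 5 genes themselves lie between 0.95 and 0.97 with 36 libraries, which their being part of the mean fixes in part.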

How the data were processed

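RNA of kidney cortex from 36 libraries was depleted of ribosomal RNA and sequenced from directional libraries, per the labels' protocols. The authors deposited 1 table of raw gene counts, and 0 of its columns were left unmatched to a sample. Per the submitters' processing notes, the authors used bcl2fastq 2.17.1.14, STAR and featureCounts on GRCm38; neither the strand setting, the annotation release nor the treatment of multi-mapping reads is stated there. Groups come from the sample labels.

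The quasi-likelihood test of edgeR 4.0.16 was applied to the counts (R 4.3.3, limma 3.58.1), with TMM factors, its low-count filter, all 36 libraries in 1 fit of 6 group means, and Benjamini-Hochberg adjustment over all genes at 0.05. The script was tested on simulated data. RPKM uses exon lengths of GENCODE M21, which held 15692 of the IDs. Log2 CPM for correlations used a prior count of 2. Depth enters through the count model.

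The members, the 11 gene lists and the tests were chosen with earlier results of these data known. Genes were named by a rule: the 5 members, the 3 best expressed of each list, list genes called in diabetic against nondiabetic mice under LXA4 (at most 4 a list), Alas1, Gata1, Klf1, Epor and Epo, and the 10 genes most like the members within groups. Exceptions are marked in the text, and some genes the rule takes are not reported here.

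Alternatives were DESeq2 1.42.0, its size factors, no filter, a mean of at least 5 CPM, only the groups compared, totals without the members, 34 libraries, the replicate number as a block, and each library left out. Ranking by likeness, levels, proportions and list calls without the 2 libraries, and list calls with each library left out, were added after the data were seen. Of the 6 comparisons of 2 groups, same-numbered libraries deviated together in all 6 pairs (r of 0.13 to 0.48, genes of at least 1 CPM) only for benzo-LXA4 against vehicle in nondiabetic mice. There the own number was the best match in 3 of the 6 pairs. Whether the numbers pair these libraries is not settled by this, and the labels give no pairing.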

Additional observations from a re-analysis of the deposited data

Results flagged for a closer look

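In groups of 6, a library was set apart where its gap to the nearest of the others, relative to the group's range, exceeded Dixon's 95% critical value. Of 54 groups checked this way 6 had such a library, and chance gives about 1 in 20.

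Nondiabetic LXA4 replicate 3 was high for both alpha genes, at 81.5 CPM of Hba-a1 and 62.6 CPM of Hba-a2, above the other 5 libraries of its group. The Hba-a1 share of alpha-globin CPM was low at 45.6% in nondiabetic vehicle replicate 3 and at 33.3% in diabetic LXA4 replicate 6, the libraries with the fewest counts and the most noncoding RNA. In the same nondiabetic vehicle library the ratio of beta to alpha CPM was high, at 1.93. The Hbb-bt share of beta-globin CPM was low at 11.5% in nondiabetic LXA4 replicate 5.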

How the results depend on the processing

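The log2 differences of the 5 genes kept their sign in every comparison under every alternative run. In diabetic against nondiabetic mice under LXA4 the Hbb-bs call was lost with a mean of at least 5 CPM (-0.68, edgeR adjusted p = 0.0566), without the 2 libraries richest in noncoding RNA (-0.58, 0.0920) and with only the groups compared in the fit (-0.72, 0.113); fewer genes or libraries enter these fits, and the cause was not tested further. With single libraries left out, its difference ran from -0.93 to -0.57 (edgeR adjusted p 0.0135 to 0.106), that of Hba-a1 from -0.79 to -0.41, of Hba-a2 from -0.66 to -0.38, of Hbb-bt from -0.83 to -0.49 and of Alas2 from -0.66 to -0.30. With the replicate number as a block, Hbb-bs stood at -0.78 (edgeR adjusted p = 0.0439), and the block changed no call of the 5 genes there. It moved the count of genes called for LXA4 against vehicle in diabetic mice from 56 to 28. Same-numbered libraries of that comparison correlated above 0.1 in 2 of 6 pairs, and of the LXA4 comparison of diabetic and nondiabetic mice in 1 of 6. These correlations show no pairing by number but cannot exclude one.

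Counts over all genes moved more. Diabetic against nondiabetic vehicle gave 881 calls, and 442 with a mean of at least 5 CPM, 1399 without the 2 libraries, 342 with only those groups, 1330 by DESeq2 and 441 to 1338 with single libraries left out. LXA4 against vehicle in diabetic mice gave 93 without the 2 libraries, 1 with only those groups, 231 by DESeq2 and 0 to 88 with single libraries left out. Diabetic against nondiabetic under LXA4 gave 4353 calls, 2338 with only those groups and 3446 to 4854 with single libraries left out. Benzo-LXA4 against vehicle in diabetic mice gave 0 calls, and 48 without the 2 libraries, 3 with only those groups and 52 by DESeq2. By DESeq2 there were 3 calls for LXA4 and 2 for benzo-LXA4 in nondiabetic mice, where edgeR gave 0 (967 and 452 genes at an unadjusted p under 0.05). The causes were not tested.

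Depth limits diabetic LXA4 replicate 6, where the 5 genes rest on 7 to 165 counts.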

Other observations

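Haptoglobin (Hp) and haemopexin (Hpx), plasma proteins made mainly by the liver that bind free haemoglobin and haem, were singled out after their values were seen. Hp ran from 0.244 through a median of 1.05 to 11.8 CPM in nondiabetic benzo-LXA4, beside 0.244 through 0.426 to 1.72 CPM in nondiabetic vehicle (log2 difference 2.37, SE 0.79, edgeR adjusted p = 1.00). Its ranges overlapped fully at the low end, and 1 library set the mean of 2.66 ± 4.49 CPM (n = 6). Hpx had group means between 0.326 and 0.817 CPM. Within groups neither gene followed the globins, with r of 0.01 for Hp and 0.002 for Hpx over 36 libraries.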
